A study of Mus musculus with 2 samples.

Results

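Cycling CD8 T cells were the dividing members of the cytotoxic T cell lineage among the immune cells of the NOD mouse pancreas. A barcode was taken as one when it held at least 4 UMIs summed over the 7 cell cycle genes Mki67, Top2a, Birc5, Ccna2, Rrm2, Cdk1 and Nusap1, at least 2 UMIs of the T cell receptor chains Cd3d, Cd3e and Cd3g, at least 2 UMIs of the CD8 chains Cd8a and Cd8b1, no Cd4 UMI and at most 1 Cd79a UMI. A UMI is a molecular identifier that marks 1 captured RNA molecule. The rule found 79 cells among the 3913 barcodes kept, 23 of 1109 at 7 weeks and 56 of 2804 at 12 weeks. Both groups were female mice of the inbred strain NOD/ShiLtJ, which develops autoimmune diabetes as immune cells enter the pancreatic islets. By the labels the groups differed only in age, 7 weeks or 12 weeks, and neither carried a treatment or an engineered allele. Each age is 1 library, so age and library cannot be told apart. Leukocytes bearing the pan-leukocyte surface form CD45.1 were flow-sorted from the whole pancreas, so cells outside the islets could be among them, and each age gave 1 droplet library (10x Chromium, 3' end counting). How many mice went into a library was not given in the sources used here. With 1 library per age there is no replicate error and no test between ages, and every interval below covers counting error only.

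CD8 T cells recognise peptides on MHC class I and kill target cells through granzymes and perforin, and in NOD mice they are known to attack the insulin-producing beta cells. An activated T cell that divides passes from G1, when replication origins are licensed by loading of the Mcm helicase, through S phase, when DNA and histones are made, into G2 and mitosis, when cyclin B, the spindle and the anaphase-promoting complex act. Genes of the S phase wave are classically controlled by E2F factors, and genes of the G2/M wave by the DREAM and B-Myb complexes that act through CHR elements and CCAAT boxes in their promoters.

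The 79 cells were compared with 283 CD8 T cells chosen by the same lineage rule that held at most 1 UMI over the 7 cell cycle genes and at least 2 UMIs of the chemokine gene Ccl5 (80 at 7 weeks and 203 at 12 weeks). These are called the resting Ccl5 cells below, Ccl5 being a gene of effector and memory CD8 T cells. The cycling cells held far more UMIs. A rule on raw UMIs more readily takes deep barcodes as cycling and shallow ones as resting. Its part in this gap was not tested here. The median total of the cycling cells was 18130 UMIs (5137 to 64433) at 7 weeks and 15325.5 (4323 to 56602) at 12 weeks, against 5834.5 and 5381 in the resting Ccl5 cells. Levels are therefore given in CPM, the UMIs of a gene per 1000000 UMIs of its class and library, after every cell was thinned at random to 3000 UMIs, which left out 4 resting cells at 7 weeks and no cycling cell. A gene is called higher or lower where its level differed by more than 2-fold in the same direction in both libraries, among genes with at least 30 UMIs over the sums compared. Because the rule chose cells for cell cycle RNA, the high level of other cell cycle genes follows in part from the choice and is a description.

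The markers of the label are genes of the rule, so their detection checks the selection and is not support for the label. The defining genes Mki67 (chr7:135689784-135716361, mm10), Top2a (chr11:98992943-99024189), Cd8a (chr6:71373427-71379173) and the rest of the 7 cell cycle genes were all detected, and the 7-gene sum reached a median of 27 UMIs (5 to 102) at 7 weeks and 38 (4 to 191) at 12 weeks. Cd8a stood at 971 and 1119 CPM in cycling cells at 7 and 12 weeks, against 1004 and 1072 in the resting Ccl5 cells, ratios of 0.967 (0.725 to 1.27) and 1.04 (0.883 to 1.23). The CD8 lineage gene was thus at a like level per UMI in dividing and resting cells, and both intervals held 1. Both classes were chosen for at least 2 UMIs of the CD8 chains, so this likeness follows in part from the rule. Of the 79 cells, 20 of 23 and 52 of 56 held at least 2 Ccl5 UMIs. That cut is on raw UMIs, and some deep cells passed it with few, such as 7 of 64433 UMIs at 7 weeks and 4 of 52529 at 12 weeks.

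At least 2 UMIs of B cell, macrophage, dendritic, endothelial, stromal, granulocyte or mast cell markers were held by 19 of the 23 and 46 of the 56 cycling cells, and by 12 and 21 when Cd74 and Bst2 were not counted. Granulocyte markers were at 0 and endothelial or stromal markers reached at most 1 UMI in any cycling cell. Macrophage markers summed to 58.0 and 35.7 CPM against 101 and 133 in the resting Ccl5 cells, dendritic cell markers to 174 and 71.4 against 250 and 212, and acinar markers to 72.5 and 173 against 21.9 and 310, with 25 acinar UMIs in 1 cell at 7 weeks. Markers of NK and innate lymphoid cells, some of which CD8 T cells also express, summed to 377 and 458 against 434 and 478. B cell markers summed to 869.6 CPM at 7 weeks and 101 at 12 weeks, against 259 and 488 in the resting Ccl5 cells and 23811 and 28261 in B cells, with Pax5 and Cd22 at 0 at 7 weeks. At 7 weeks most of that sum came from 1 cell of 16962 UMIs, which held 353 B marker UMIs, all of them Cd74, the invariant chain of MHC class II. Cd79a, Cd79b and Ms4a1 were at 0 in that cell, and the next highest cycling cell at that age held 27 B marker UMIs. Ratios that rest on it are marked below, with ratios or UMIs without it. A doublet caller (Scrublet) marked 2 of 1109 and 8 of 2804 barcodes, too few to count as working, and none of the 79 cells. Both libraries shared 2 barcodes, neither of them a cycling CD8 T cell.

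Dividing cells made up 13.5% of CD8 T cells at 7 weeks (23 of 170, exact 95% interval 8.77% to 19.6%) and 12.2% at 12 weeks (56 of 459, 9.35% to 15.5%). The ratio of the later to the earlier share was 0.902 (0.546 to 1.54), so no difference between the ages could be seen at this depth. The share went with depth: no cell of 51 below 5000 UMIs met the rule at 7 weeks, which allows a share of up to 6.98%, while 19 of 35 cells (54.3%) at or above 10000 UMIs did. At 12 weeks the corresponding shares were 1.14% (2 of 175) and 60.3% (41 of 68). When the rule was applied after thinning to 3000 UMIs the shares were 7.86% (11 of 140) and 8.02% (34 of 424). The part of RNA content in the share was not tested beyond this thinning.

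Among CD8 T cells, division was found mostly in those with Ccl5. At least 2 Ccl5 UMIs marked 114 cells at 7 weeks, of which 17.5% (11.1% to 25.8%) were cycling, and 271 cells at 12 weeks, of which 19.2% (14.7% to 24.4%) were cycling. Below 2 Ccl5 UMIs the shares were 5.36% (3 of 56) and 2.13% (4 of 188). After thinning to 3000 UMIs they were 11.6% and 12.8% with Ccl5, against 1.85% (1 of 54) and 2.54% (5 of 197) without. The direction was the same in both libraries at matched depth, with intervals of 5.72% to 20.3% and 0.0469% to 9.89% at 7 weeks that overlapped, and of 8.73% to 17.8% and 0.829% to 5.82% at 12 weeks that did not. By the same cell cycle rule, CD4 T cells (at least 1 Cd4 UMI and no CD8 chain) were cycling in 8.45% (30 of 355) and 5.93% (48 of 810), and after thinning in 2.45% and 3.09%.

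Over all genes, 252 of 3972 measured (6.34%) were higher in the cycling cells than in the resting Ccl5 cells and 145 (3.65%) were lower. Of these, 141 and 45 passed the same fold in a second random thinning and without thinning as well, which is meant below by all settings. The median log2 ratio over all measured genes was 0.25 at 7 weeks and 0.11 at 12 weeks. Those shares are the background for each gene list, and since the rule used this contrast, the list counts describe the cells.

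**Figure D1:**
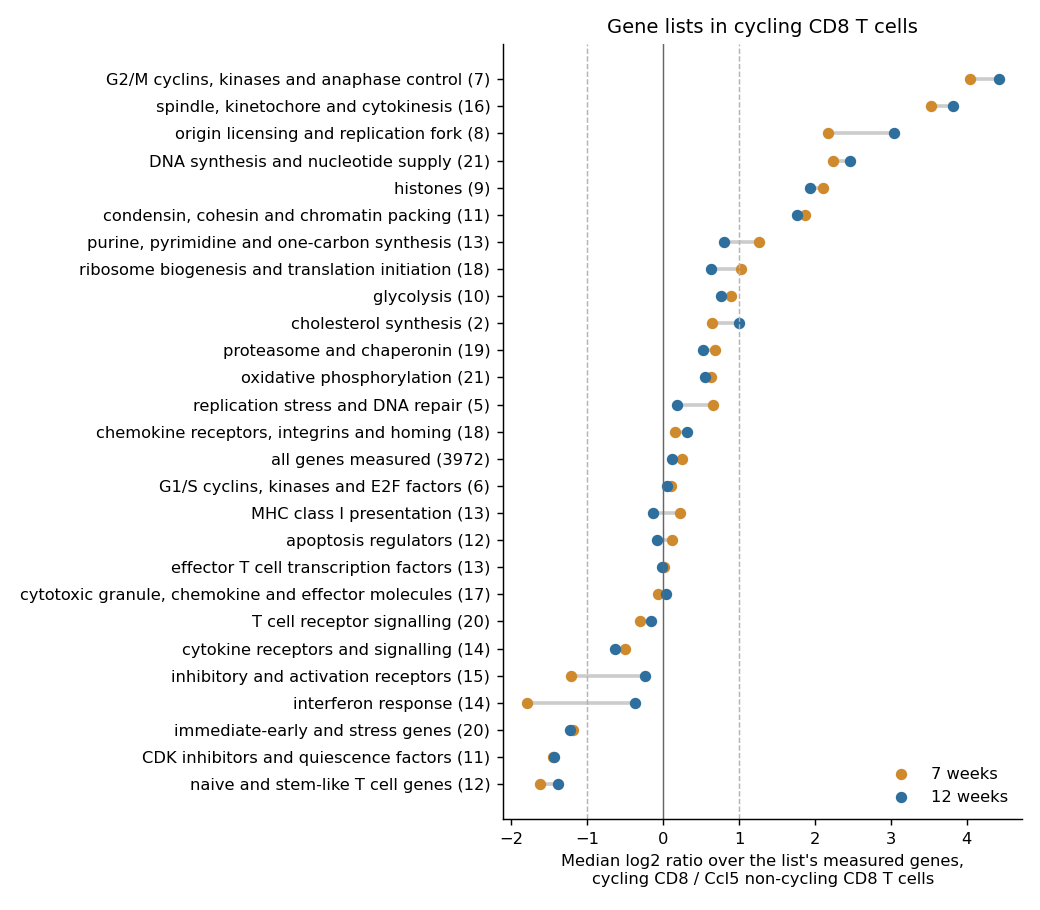
Median log2 ratio of CPM, cycling over resting Ccl5 CD8 T cells (x axis), for each gene list (y axis, measured genes in parentheses), with 1 point per library. Spindle, G2/M, licensing and DNA synthesis lists lie to the right in both libraries (spindle at 3.52 and 3.82), and cell cycle inhibitor, naive and stress lists lie to the left.

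Every measured origin licensing gene was higher: 8 of 8, with median log2 ratios of 2.17 and 3.03, and all 8 also passed under the second thinning and without thinning. Mcm5, a subunit of the replicative helicase, stood at 289.9 and 351 CPM in cycling cells at 7 and 12 weeks against 21.9 and 31.2 in the resting Ccl5 cells, ratios of 13.2 (4.81 to 45.1) and 11.3 (6.62 to 20). Mcm3, of the same ring, was at 217 and 262 against 30.7 and 36.1. Both libraries showed the difference with intervals well above 1. Mcm6 was at 188 and 375 against 87.7 and 146, with ratios of 2.15 (0.982 to 4.54) and 2.57 (1.83 to 3.58), the smallest of the helicase genes, and the 7-week interval reached below 1. Against deeper resting cells (below) its log2 ratios were 0.44 and 0.55, under the fold. Gmnn, which encodes the licensing inhibitor geminin that builds up from S phase onward, was at 174 and 214 against 8.77 and 3.28.

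DNA synthesis genes followed, with 17 of 21 measured genes higher and none lower (median log2 ratios of 2.23 and 2.46), 14 of them under all settings. Dut, which removes dUTP from the nucleotide pool, was at 565 and 637 CPM against 92.1 and 78.8. Pcna, the sliding clamp of the replication fork, was at 493 and 369 against 114 and 75.5, with ratios of 4.32 (2.52 to 7.5) and 4.89 (3.28 to 7.32). Enzymes that make nucleotides differed in both libraries too. Rrm1, the large subunit of ribonucleotide reductase, was at 174 and 262 against 8.77 and 19.7, and the thymidylate synthase gene Tyms at 188 and 244 against 39.5 and 26.3. Of the 5 measured DNA repair genes only Tipin, a replication fork protection factor, was called, at 188 and 232 against 39.5 and 29.6.

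The promoters of replication and mitotic genes can be read beside these values. Most measured genes of both waves were higher in the cycling than in the resting cells. That contrast cannot show whether the genes of each wave moved as a unit, since both waves rose in it. RefSeq windows of GRCm38.p6 (the 250 bases before the gene start) were found for 40 of 48 licensing and DNA synthesis genes and for 52 of 62 G2/M and spindle genes. The 4 windows shown are those of called genes with a match to the motif of their wave, picked after the values were seen. An E2F match was TTTCCCGC or TTTGGCGC, a CHR match TTTGAA or TTTAAA, and a CCAAT box CCAAT, each on either strand. In Mcm5 (chr8:75109259-75109508, plus strand) and Mcm6 (chr1:128359706-128359955, minus strand) capitals mark the E2F matches.
Mcm5: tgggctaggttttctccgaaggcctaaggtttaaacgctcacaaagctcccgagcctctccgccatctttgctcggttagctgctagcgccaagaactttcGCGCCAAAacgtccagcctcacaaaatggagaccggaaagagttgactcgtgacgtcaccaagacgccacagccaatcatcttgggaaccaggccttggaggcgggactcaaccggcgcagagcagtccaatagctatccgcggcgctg
Mcm6: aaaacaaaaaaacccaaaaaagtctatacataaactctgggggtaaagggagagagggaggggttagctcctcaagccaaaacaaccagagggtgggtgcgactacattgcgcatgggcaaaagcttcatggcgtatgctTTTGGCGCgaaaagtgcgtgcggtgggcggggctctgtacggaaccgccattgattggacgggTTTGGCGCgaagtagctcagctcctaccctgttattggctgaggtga
In Ccnb2 (chr9:70421555-70421804, minus strand) and Cdc20 (chr4:118437344-118437593, minus strand) capitals mark the CHR and CCAAT matches.
Ccnb2: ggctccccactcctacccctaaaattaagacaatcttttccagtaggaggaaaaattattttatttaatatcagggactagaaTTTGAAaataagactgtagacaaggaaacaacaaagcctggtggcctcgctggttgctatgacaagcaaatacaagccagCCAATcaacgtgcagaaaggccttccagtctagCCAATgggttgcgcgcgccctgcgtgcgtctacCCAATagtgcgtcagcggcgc
Cdc20: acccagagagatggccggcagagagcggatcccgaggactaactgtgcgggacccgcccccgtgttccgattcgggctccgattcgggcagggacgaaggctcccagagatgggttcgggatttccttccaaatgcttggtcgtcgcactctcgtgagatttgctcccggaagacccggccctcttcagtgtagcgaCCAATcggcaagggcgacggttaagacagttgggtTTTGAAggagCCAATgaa
Mcm5 held its E2F match 149 to 142 bases before the start, in reverse orientation. Mcm6 held the same element 110 to 103 bases and again 47 to 40 bases before the start. Left unmarked, the Mcm5 window also held a CHR match at 221 to 216 bases and CCAAT boxes at 77 to 73 and 22 to 18 bases. The Mcm6 window held CCAAT boxes in reverse orientation at 57 to 53 and 14 to 10 bases, so the motifs of the waves were not cleanly split. In Cdc20 the CHR letters lay 18 to 13 bases before the start, between CCAAT boxes at 53 to 49 and 8 to 4 bases. In Ccnb2 they lay 167 to 162 bases before the start, upstream of 3 CCAAT boxes at 87 to 83, 54 to 50 and 21 to 17 bases.

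Across the lists, an E2F match was held by 12.5% of replication gene windows (5 of 40: Mcm5, Mcm6, Mcm7, Cdc6 and Pola1) and by 3.85% of G2/M and spindle gene windows, against 1.35% of all 27025 windows. A CHR match together with a CCAAT box was held by 36.5% of G2/M and spindle gene windows (19 of 52) and by 15% of replication gene windows, against 9.0% of all windows. CCAAT boxes alone were frequent in both, at 76.9% and 62.5% against 34.5% of all windows, and the short CHR letters alone were found in 38.5% and 20% against 25.5%. These are matches of letters and not measured binding.

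The G2/M and spindle genes were the furthest apart. Of the G2/M control genes, 6 of 7 measured were higher (median log2 ratios of 4.05 and 4.42, or 3.60 and 4.52 with genes at 0 UMIs in the resting cells set at the floor of 3 counts). Ccnb2 (chr9:70407692-70421547), the cyclin that drives entry into mitosis with Cdk1, was at 246 and 363 CPM against 0 and 11.5, which is at least 18.7-fold higher at 7 weeks with the resting sum set at that floor, and 31.6 (14.4 to 81.9) times at 12 weeks. Ube2c, the ubiquitin-conjugating enzyme of the anaphase-promoting complex, was at 406 and 369 against 13.2 and 6.57, ratios of 30.8 (9.53 to 159) and 56.2 (20.9 to 213). Cdc20, an activator of that complex, was at 159 and 190.5 against 0 and 8.21. In the resting cells these mitotic genes were at or near 0, so the ratios are wide. Pttg1, which encodes securin, the guardian of sister chromatid cohesion, was at 275 and 345 against 30.7 and 50.9.

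All 16 measured spindle and kinetochore genes were higher (median log2 ratios of 3.52 and 3.82, or 3.36 and 3.92 with the floor), 15 of them under each of the thinnings and without thinning. Stmn1 (chr4:134468320-134473843), a microtubule destabiliser, was at 1116 and 1089 CPM against 57 and 42.7, ratios of 19.6 (10.8 to 38.4) and 25.5 (16.9 to 40.1). Tuba1b, an alpha tubulin, was at 2043 and 1899 against 193 and 215, ratios of 10.6 (7.5 to 15.2) and 8.83 (7.18 to 10.9). These are abundant transcripts, so the intervals are narrow and the libraries gave like values. Cenpa, the centromeric histone H3 variant, was at 406 and 345 against 30.7 and 69, and the beta tubulin gene Tubb5 at 1652 and 1982 against 342 and 369.

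Chromatin packaging genes differed in the same direction. Of the histone genes 6 of 9 measured were higher (median log2 ratios of 2.10 and 1.93). H2afz, the replication-independent variant H2A.Z, was at 2145 and 2399 CPM against 500 and 557, ratios of 4.29 (3.34 to 5.53) and 4.31 (3.72 to 4.99). Hist1h2ap, a replication-dependent H2A gene, was at 826 and 429 against 0 and 3.28. Most replication-dependent histone mRNAs lack a poly(A) tail and are poorly captured by poly(A) priming, and near-identical copies can share reads, so the level of Hist1h2ap is uncertain. Of the chromosome structure genes 8 of 11 were higher, 7 of them under all settings. Hmgb2 (chr8:57511907-57515999), a DNA-bending chromatin protein, was at 3406 and 3988 against 443 and 394, ratios of 7.69 (6.06 to 9.81) and 10.1 (8.72 to 11.8). The condensin subunit Smc2 was at 304 and 298 against 39.5 and 34.5, and the nucleosome-binding gene Hmgn2 at 783 and 714 against 114 and 113.

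The cycling cells varied among themselves in the wave they expressed. In each thinned cell, UMIs of 48 licensing and DNA synthesis genes were set against UMIs of 57 G2/M and spindle genes, leaving out the rule's genes and tubulins. At 7 weeks the replication sum ran from 3 to 37 UMIs (median 15) and the G2/M sum from 0 to 64 (median 15), and at 12 weeks from 1 to 43 (median 20) and from 0 to 59 (median 21.5). The resting Ccl5 cells had medians of 3 and 1 at both ages, and single resting cells reached 20 and 21 replication UMIs, so the replication sums of the classes overlapped.

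Taking more than 50% of these UMIs as the divide, 12 of 23 cells (52.2%) at 7 weeks and 25 of 56 (44.6%) at 12 weeks expressed mostly G2/M genes, and 10 (43.5%) and 28 (50%) mostly replication genes. The remaining 1 and 3 cells held under 10 such UMIs. The divide is a range and not a type: 7 of 22 and 18 of 53 cells lay between 40% and 60%. Thinning to 1500 UMIs lowered the 7-week G2/M share to 30.4%. Median totals were 16972.5 UMIs in replication cells against 19169.5 in G2/M cells at 7 weeks, and 15172.5 against 16351 at 12 weeks.

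Per cell, effector RNA had like medians in both waves, while single genes differed. UMIs of the cytotoxic list had medians of 17.5 in replication cells against 14.5 in G2/M cells at 7 weeks and of 21 against 23 at 12 weeks, and UMIs of the inhibitory receptor list of 4 against 4 and 5 against 6. Gzmb, the gene of granzyme B, was at 233 against 500 CPM at 7 weeks and 167 against 440 at 12 weeks (replication against G2/M cells). A single cell held a large part of its UMIs in each library, as given below. The Gzmb contrast was not repeated without that cell, so no direction is drawn from it. Xcl1 and Ccl4, both chemokine genes, were at 33.3 against 4028 at 7 weeks and 1167 against 1080 at 12 weeks and at 200 against 2972 at 7 weeks and 881 against 1373 at 12 weeks, so they differed widely at 7 weeks, when 1 cell held 48.3% of the Xcl1 UMIs. The cytotoxic list as a whole had median log2 ratios of 0.47 and 0.30 (G2/M over replication cells). Histone list UMIs had medians of 19 against 18.5 and 17.5 against 21. Hist1h2ap went in opposite directions, at 1633 against 222 at 7 weeks and 262 against 667 at 12 weeks (replication against G2/M cells).

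**Figure D2:**
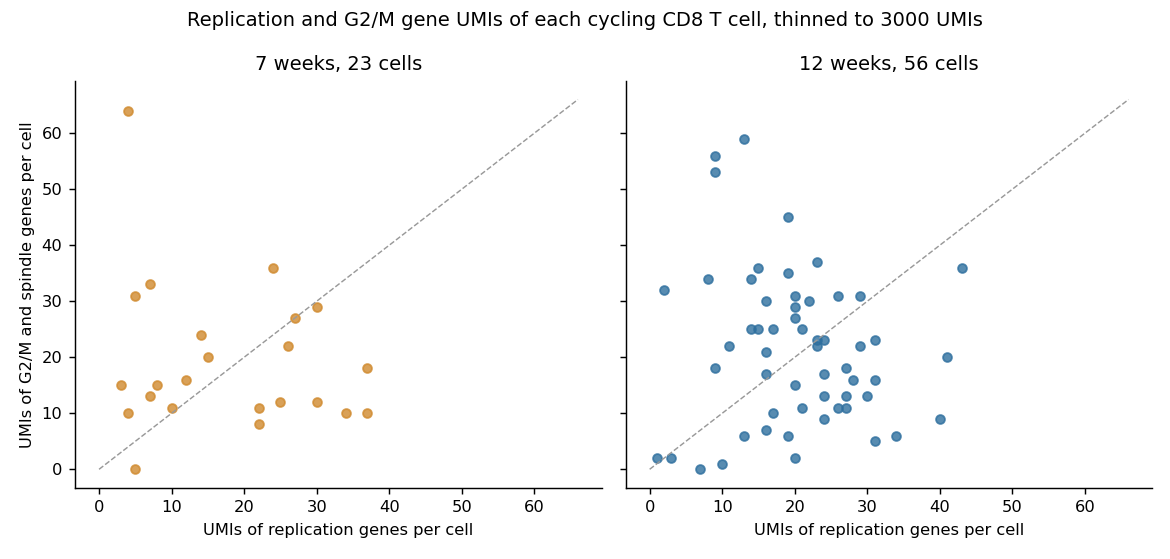
UMIs of replication genes (x axis) and of G2/M and spindle genes (y axis) in each cycling CD8 T cell, thinned to 3000 UMIs, in 1 panel per library with the line of equal counts dashed. Cells spread on both sides of the line at both ages, with G2/M sums up to 64 and 59 UMIs.

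Of 17 listed G1/S control genes only 6 were measured, and 0 of 6 were called, with median log2 ratios of 0.10 and 0.05. At background shares of 6.34% higher and 3.65% lower, so short a list can hold no called gene, and no conclusion is drawn from it. Single genes lay on opposite sides. Cdk4, the G1 kinase, was above the resting cells in both libraries, though not past the fold in both, at 232 and 220.2 CPM against 114 and 118. The D-type cyclin gene Ccnd3 was at 203 and 202 against 377 and 328, ratios of 0.538 and 0.616.

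Genes that hold cells out of division were lower. Of the 11 measured in the list of cell cycle inhibitors and quiescence factors, 5 were lower (Btg1, Cdkn1b, Txnip, Foxp1 and Klf2) and none higher, with median log2 ratios of -1.45 and -1.43, or -1.64 and -1.52 with the floor. Btg1 (chr10:96617006-96622809), an antiproliferative factor, was at 507 and 214 CPM against 1583 and 869, ratios of 0.32 (0.22 to 0.454) and 0.247 (0.171 to 0.346). Txnip, which restrains glucose uptake, was at 29 and 17.9 against 127 and 139.6. Cdkn1b, which encodes the Cdk inhibitor p27, was at 14.5 and 23.8 against 57 and 64. Btg1, Cdkn1b and Txnip also passed under the second thinning and without thinning, but against deeper resting cells (below) Btg1 had log2 ratios of -1.41 and -0.72 and Cdkn1b of -1.35 and 0.09, so neither kept the fold at 12 weeks.

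A level in CPM is a share of a cell's RNA, and the cycling cells held about 3 times as many UMIs, a gap to which the rule may add. In UMIs per cell without thinning, Btg1 had 8.96 against 9.86 at 7 weeks and 3.71 against 4.76 at 12 weeks (cycling against resting cells), and Cdkn1b had 0.478 against 0.338 at 7 weeks and 0.339 against 0.335 at 12 weeks. These genes thus had a smaller share of a larger total: per cell, Btg1 was slightly below the resting cells and Cdkn1b at or above them. The nuclear RNA Malat1, picked after its values were seen, was at 9203 and 7333 CPM against 24868 and 26315, and in UMIs per cell had 136 against 150.2 at 7 weeks and 97.7 against 152 at 12 weeks. Fewer molecules per cell and a larger total cannot be separated by levels in CPM alone.

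**Figure D3:**
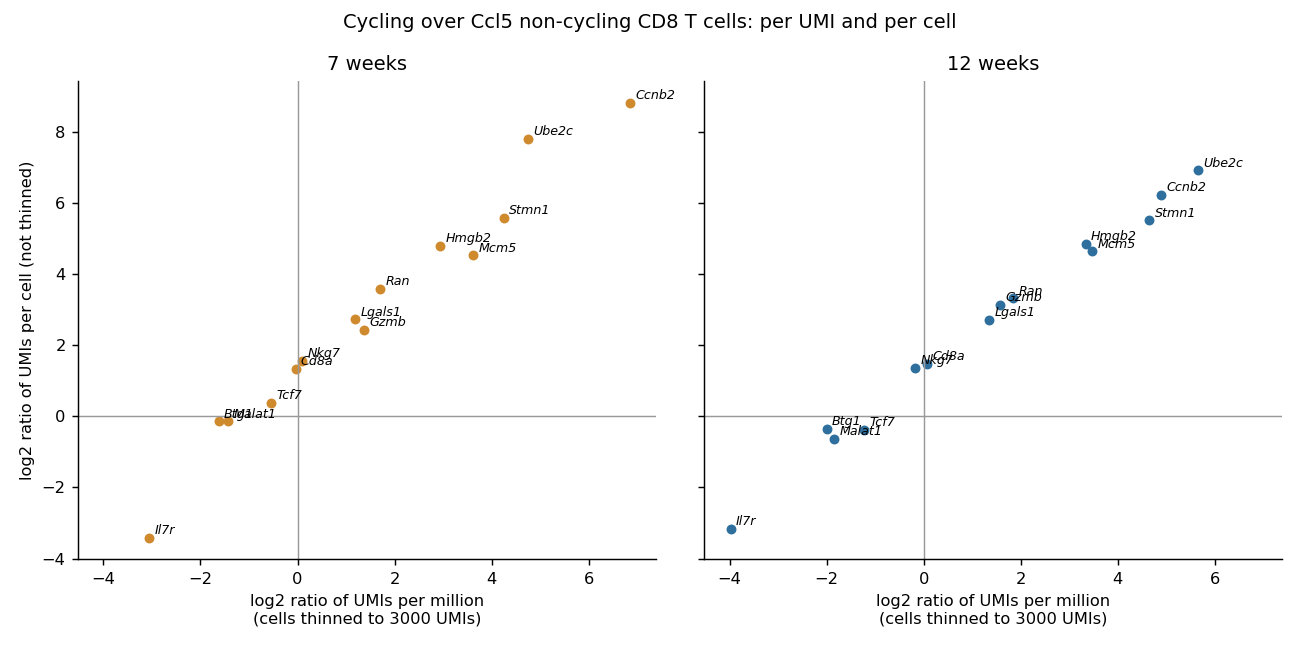
Log2 ratio of cycling over resting Ccl5 CD8 T cells in CPM of thinned cells (x axis) and per cell without thinning (y axis), for chosen genes, 1 panel per library. Btg1 and Malat1 lie left of 0 and nearer to 0 on the per-cell axis, with Malat1 below it at 12 weeks (97.7 against 152 UMIs per cell), Il7r is below 0 on both, and the cell cycle genes are above 0 on both.

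Per cell as well as in CPM, the level was lower for Il7r. Il7r (chr15:9505788-9530176), the interleukin 7 receptor chain that sustains naive and memory T cells, had 1 UMI in all cycling cells of each library after thinning. Its levels were 14.5 and 5.95 CPM against 179.8 and 139.6 in the resting Ccl5 cells, ratios of 0.0806 (0.00199 to 0.475) and 0.0426 (0.00107 to 0.244). In UMIs per cell without thinning it had 0.087 against 0.925 at 7 weeks and 0.0893 against 0.803 at 12 weeks. A UMI was found in 4.35% and 1.79% of thinned cycling cells (8.7% and 8.93% unthinned), against 31.6% and 24.1% of resting Ccl5 cells (40% and 31.5% unthinned). In thinned B cells it was found in 3.85% (4 of 104) and 0 of 472, so at 7 weeks the share in cycling cells was close to that in B cells.

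Other naive and memory genes were lower with Il7r. Of 12 measured, 6 were lower and none higher (median log2 ratios of -1.63 and -1.38, or -1.32 and -1.44 with the floor), and Il7r, Bcl2 and Id3 were lower under all settings. Bcl2, an inhibitor of apoptosis, was at 43.5 and 29.8 CPM against 127 and 143, ratios of 0.342 (0.0666 to 1.1) and 0.208 (0.066 to 0.505), the first of which included 1. S1pr1, the receptor for egress from tissue, had ratios of 0.184 (0.00441 to 1.16) and 0.483 (0.124 to 1.37), and both intervals included 1. Tcf7, the factor of naive and stem-like T cells, missed the fold at 7 weeks: it was at 87 and 71.4 against 136 and 174.

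Effector genes were mostly at a like level in dividing and resting cells. Of 17 measured cytotoxic genes 2 were higher and 1 lower, with median log2 ratios of -0.07 and 0.04, near those of all genes. Nkg7, a granule membrane protein, was at 2667 and 2952 CPM against 2500 and 3327, ratios of 1.07 (0.898 to 1.26) and 0.887 (0.803 to 0.98). Gzmk, the gene of granzyme K, was at 319 and 357 against 136 and 268, past the fold at 7 weeks only. The interferon gamma gene Ifng was at 101 and 214 against 250 and 210.2, below at 7 weeks and close to equal at 12 weeks.

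Gzmb (chr14:56258838-56262260), which encodes the protease granzyme B that triggers death of target cells, was one of the genes called higher. It was at 362 and 363 CPM in the cycling cells against 140.4 and 122, ratios of 2.58 (1.47 to 4.5) and 2.99 (2.09 to 4.25). The 7-week ratio was 1.61 without thinning, under the fold, and the 12-week ratio 3.04. Against deeper resting cells (below) the 12-week log2 ratio of Gzmb was 0.30, also under the fold. Expression was uneven: a UMI was found in 26.1% and 21.4% of thinned cycling cells (34.8% and 37.5% unthinned), against 13.2% and 11.3% of resting Ccl5 cells (15% and 15.8% unthinned). In thinned B cells, which should lack it, it was found in 0 of 104 and 1 of 472. The single highest cycling cell held 32% at 7 weeks and 37.7% at 12 weeks of the class's Gzmb UMIs. Without the UMIs of that cell Gzmb would be under the fold in each library, so its call rests on single cells. Gzma, the gene of granzyme A, was also called, but 1 cell held 100% at 7 weeks and 50.8% at 12 weeks of its UMIs. Leaving out the highest cell in each library gave Gzma log2 ratios of -2.36 and 3.35, so its call, which held under all settings, rests on single cells. The chemokine gene Xcl1 had ratios of 2.43 and 1.37, with 48.3% at 7 weeks and 31.8% at 12 weeks in 1 cell.

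Inhibitory and activation receptors gave 0 higher and 1 lower gene of 15 measured (median log2 ratios of -1.21 and -0.24, or -0.62 and -0.25 with the floor). The gene of the checkpoint receptor PD-1, Pdcd1, was at 275 and 321 CPM against 316 and 274, ratios of 0.872 (0.497 to 1.46) and 1.17 (0.846 to 1.6). Both intervals held 1. Lag3, a checkpoint receptor that binds MHC class II, was at 362 and 274 against 333 and 552, ratios of 1.09 (0.663 to 1.73) and 0.496 (0.356 to 0.677). Cd69, an early activation and tissue retention receptor, was the gene called lower, at 159 and 190.5 against 461 and 424, ratios of 0.346 (0.168 to 0.645) and 0.45 (0.301 to 0.651). Against deeper resting cells (below) its log2 ratios were -1.65 and -0.10, so the fold was lost at 12 weeks.

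No T cell transcription factor of 13 measured was called (median log2 ratios of 0.01 and -0.02). Tox, a factor of chronically stimulated CD8 T cells, was at 188 and 232 CPM against 145 and 228. Id2, a factor of effector cells, had ratios of 0.808 and 1.2, and Batf, an AP-1 partner, of 1.05 and 0.98. Among 14 cytokine receptor and signalling genes, Il18r1, a receptor chain for interleukin 18, and Socs3, a feedback inhibitor of cytokine signalling, were lower, with ratios of 0.33 and 0.137 and of 0.138 and 0.46. Il2rb, the beta chain of the interleukin 2 and 15 receptors, was not called, at 1.1 and 1.09 times. Of 20 receptor signalling genes 3 were lower (Txk, Rasgrp1 and Cblb), and only the kinase gene Txk remained so under all settings, with ratios of 0.147 and 0.224.

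Of 18 homing and adhesion genes, Lgals1 and Vim were higher and none was lower, and neither passed under all settings. Lgals1, the gene of galectin 1, was at 2652 and 3137 CPM against 1171 and 1227, with ratios of 2.26 (1.87 to 2.74) and 2.56 (2.28 to 2.86) and of 1.98 and 2.27 without thinning. Vim, an intermediate filament gene, was at 928 and 1173 against 443 and 491. The chemokine receptor genes Cxcr6 and Cxcr3 had ratios of 1.04 and 0.81 and of 0.551 and 0.622.

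Metabolic and growth lists lay above all genes, with few single genes called. Oxidative phosphorylation had 2 of 21 genes higher with median log2 ratios of 0.62 and 0.55, the proteasome 1 of 19 with 0.68 and 0.53, glycolysis 2 of 10 with 0.89 and 0.77, and ribosome biogenesis and nuclear transport 3 of 18 with 1.03 and 0.64, none lower in any of them. Ran, the GTPase of nuclear transport and spindle assembly, was at 1435 and 1518 CPM against 439 and 424, and its partner Ranbp1 at 594 and 583 against 175 and 179, ratios of 3.39 (2.14 to 5.37) and 3.26 (2.46 to 4.32). The glycolytic gene Tpi1 was at 261 and 250 against 52.6 and 69, while Pkm, of the same pathway, had ratios of 1.79 and 1.87 and was not called. Of 13 one-carbon and nucleotide synthesis genes 3 were higher, and only the purine synthesis gene Paics was so under all settings, at 4.63 and 2.72 times. Of 2 measured cholesterol synthesis genes Fdps was higher, at 2.64 and 2.79 times.

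Immediate-early and stress genes were lower. Of 20 measured, 9 were lower and none higher (median log2 ratios of -1.19 and -1.22), and Fos, Jun, Junb, Dusp1, Dusp2, Zfp36 and Hspa1a were lower under all settings. Fos, a subunit of the AP-1 factor, was at 261 and 161 CPM against 632 and 442, ratios of 0.413 (0.238 to 0.676) and 0.364 (0.235 to 0.541). Junb, another AP-1 subunit, was at 261 and 399 against 1066 and 1007. The heat shock gene Hspa1a was at 232 and 196 against 851 and 588, and the constitutive family member Hspa8 was not called, at 1.52 and 1.27 times. In UMIs per cell without thinning, Fos had 3.35 against 3.52 at 7 weeks and 2.36 against 2.61 at 12 weeks, and Junb had 6.57 against 6.34 at 7 weeks and 5.93 against 5.69 at 12 weeks.

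Many calls changed when only deeper comparison cells were used. Resting Ccl5 cells with at least 8000 UMIs, a limit chosen after seeing the data, numbered 15 and 33 (median 9685 and 10476 UMIs). Against these cells the stress list had median log2 ratios of -0.33 and -0.24, the inhibitor list of -1.10 and -0.76 and the naive list of -0.80 and -1.21, each closer to 0 than above. The spindle list was at 3.12 and 3.04 and the licensing list at 2.43 and 2.70. With those cells 128 genes were higher and 12 lower. Of the named genes called lower 15 of 32 kept the fold, and of those called higher 71 of 87. Fos (log2 ratios of -0.27 and -0.86), Jun (-0.40 and -1.54), Junb (-1.34 and -0.91) and Hspa1a (-0.78 and 0.02) lost it, as did Klf2, S1pr1, Socs3, Txk, Rasgrp1, Ctla2a and Isg15. Dusp2 reversed, to a mean log2 ratio of 1.26. Among the genes called higher, Lgals1, Vim, Ranbp1, Tipin and Fdps lost the fold too. The limit also left fewer comparison cells and smaller UMI sums. Depth and loss of counts cannot be told apart here, and neither part was tested further.

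Interferon-response genes had 2 of 14 lower, Slfn2 and Isg15, and none higher (median log2 ratios of -1.80 and -0.37, or -1.22 and -0.40 with the floor). Slfn2, a Schlafen family gene linked to T cell quiescence, had ratios of 0.342 (0.121 to 0.79) and 0.368 (0.236 to 0.552). Isg15 was at 0 and 29.8 CPM against 158 and 70.6. The lists of 12 apoptosis genes and 13 MHC class I genes had no called gene.

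Among genes in no list, those furthest above the resting cells were Kpna2, Lockd, Pmf1, Cbx5, Arsb, Reep4, Tmpo, Csrp1, Pcna-ps2 and Tcf19. Kpna2, an importin of the nuclear pore route, was at 174 and 107 CPM against 8.77 and 3.28. Tmpo, a lamina-associated protein gene, was at 435 and 167 against 52.6 and 34.5, and Cbx5, which encodes heterochromatin protein 1 alpha, had ratios of 26.4 (3.54 to 1173) and 5.56 (2.78 to 11.5), the first over 1 resting UMI, and of 4.03 and 4.23 without thinning. Reep4 was not called. Pcna-ps2 is a pseudogene copy of Pcna, and its reads may be those of Pcna. By log2 ratios with 0.5 UMI added, the rule for the lowest genes named Gramd3, Kbtbd11 and Hopx, which were called lower, and Fam101b, Kdm7a, Nfkbiz, Tcp11l2, Mrpl48, Slfn8 and Suv420h1, which were not, since all were at 0 UMIs at 7 weeks and a sum of 0, taken at the floor of 3 counts, was not past 2-fold there. Without thinning Mrpl48 had ratios of 0.979 and 0.927, close to 1. Hopx, a homeodomain gene of differentiated effector cells, was at 29 and 11.9 against 175 and 154. Fam101b had no UMI in the thinned cycling cells against 78.9 and 75.5 CPM, and in UMIs per cell without thinning had 0.13 against 0.438 at 7 weeks and 0.143 against 0.374 at 12 weeks.

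Against dividing CD4 T cells, which met the same cell cycle rule (30 and 48 cells, median 15430.5 and 14559.5 UMIs), the cell cycle lists showed no called gene. Of 2190 measured genes 39 (1.78%) were higher in the cycling CD8 cells and 51 (2.33%) lower, 16 and 21 of them under all settings. Licensing had 0 of 8 called, DNA synthesis 0 of 21, histones 0 of 8, G2/M control 0 of 13 and spindle 0 of 28. At background shares of 1.78% and 2.33%, lists this short can hold no called gene, so these counts do not show likeness. Licensing had median log2 ratios of 0.21 and 0.39, and the spindle list of 0.19 and -0.51, against 0.04 and -0.004 over all genes. Mcm5 was at 289.9 and 351 CPM in CD8 against 222 and 243 in CD4 cells, ratios of 1.3 (0.666 to 2.55) and 1.44 (0.935 to 2.26). Ccnb2 was at 246 and 363 against 289 and 361, and Hmgb2 at 3406 and 3988 against 3000 and 3409.7, ratios of 1.14 (0.949 to 1.36) and 1.17 (1.04 to 1.32). Both classes were chosen by the same 7 genes, so likeness in these lists follows in part from the rule.

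Part of the cytotoxic programme separated the dividing lineages in both libraries. Of 14 measured cytotoxic genes 7 were higher in CD8 cells (Xcl1, Klrd1, Klrc1, Nkg7, Gzmb, Gzma and Gzmk), none was lower in both libraries, and all 7 passed under all settings. The effector genes Ifng, Ccl3 and Ccl4 turned between the libraries, with ratios of 0.172, 0.419 and 0.776 at 7 weeks and of 2.57, 17.8 and 34.3 at 12 weeks. Nkg7 was at 2667 and 2952 CPM against 567 and 507, ratios of 4.71 (3.43 to 6.55) and 5.82 (4.55 to 7.55). Gzmk was at 319 and 357 against 66.7 and 69.4, and Gzmb at 362 and 363 against 55.6 and 6.94. Klrc1 (chr6:129666015-129678973), which encodes the receptor NKG2A, had 11 and 51 UMIs in CD8 and none in CD4 cells, at least 4.78-fold and 14.6-fold higher with the floor of 3 counts. Its partner chain Klrd1, or CD94, was at 217 and 220.2 against 22.2 and 13.9. Levels of Gzma and Xcl1 in CD8 cells rest largely on single cells, as above.

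Other genes higher in dividing CD8 cells were few. The tissue residency receptor gene Cxcr6 was at 377 and 351 CPM against 100 and 62.5, ratios of 3.77 (1.71 to 9.14) and 5.62 (2.77 to 12.9). The Ikaros family factor Ikzf3 was at 116 and 113 against 33.3 and 27.8, and Tox had ratios of 2.83 and 2.09. Of the genes in no list those furthest above were Klre1, Ss18, Arsb, Plekhb2, Gsto1, Tapbpl, Amica1 and Ube2g2, of which Klre1, an NK cell lectin-like receptor, was at 159 and 286 against 11.1 and 0. Without thinning Ss18, Plekhb2 and Ube2g2 fell under the fold in at least 1 library, and Tapbpl had ratios of 0.79 and 2.35, so its direction turned at 7 weeks.

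Dividing CD4 cells were marked by costimulatory and regulatory receptors. Of 11 measured inhibitory and activation receptors 5 were lower in CD8 cells (Ctla4, Tnfrsf4, Icos, Tnfrsf18 and Cd28), Ctla4, Tnfrsf4 and Icos under all settings. Ctla4 (chr1:60887000-60915832), a brake on costimulation, was at 0 and 29.8 CPM in CD8 against 178 and 181 in CD4 cells, with a 12-week ratio of 0.165 (0.0494 to 0.436). Tnfrsf4, the gene of the costimulatory receptor OX40, was at 29 and 17.9 against 389 and 285, ratios of 0.0745 (0.00869 to 0.29) and 0.0627 (0.0124 to 0.197). The checkpoint gene Pdcd1, by contrast, had ratios of 1.38 (0.684 to 2.78) and 1.45 (0.917 to 2.31) and was not called. The list of naive and stem-like T cell genes gave 3 of 3 measured lower (Tcf7, Ikzf2 and Slamf6), with Tcf7 at 87 and 71.4 against 222 and 181. The interferon-inducible gene Ifi27l2a was at 681 and 744 against 1744 and 2465, ratios of 0.39 (0.276 to 0.544) and 0.302 (0.244 to 0.371). Genes in no list furthest below were Tbc1d4, H1f0, Maf, Tnfsf8, Ass1, Izumo1r, Ifitm2 and Il16, of which Tnfsf8 was not called, and Il16 had ratios of 0.8 and 0.448 without thinning. Maf, a factor of helper T cells, was at 0 and 11.9 against 156 and 181, and Izumo1r, the folate receptor 4 gene, at 43.5 and 35.7 against 311 and 354. The regulatory T cell factor Foxp3 was at 0 in CD8 cells and at 11.1 and 34.7 in CD4 cells.

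**Figure D4:**
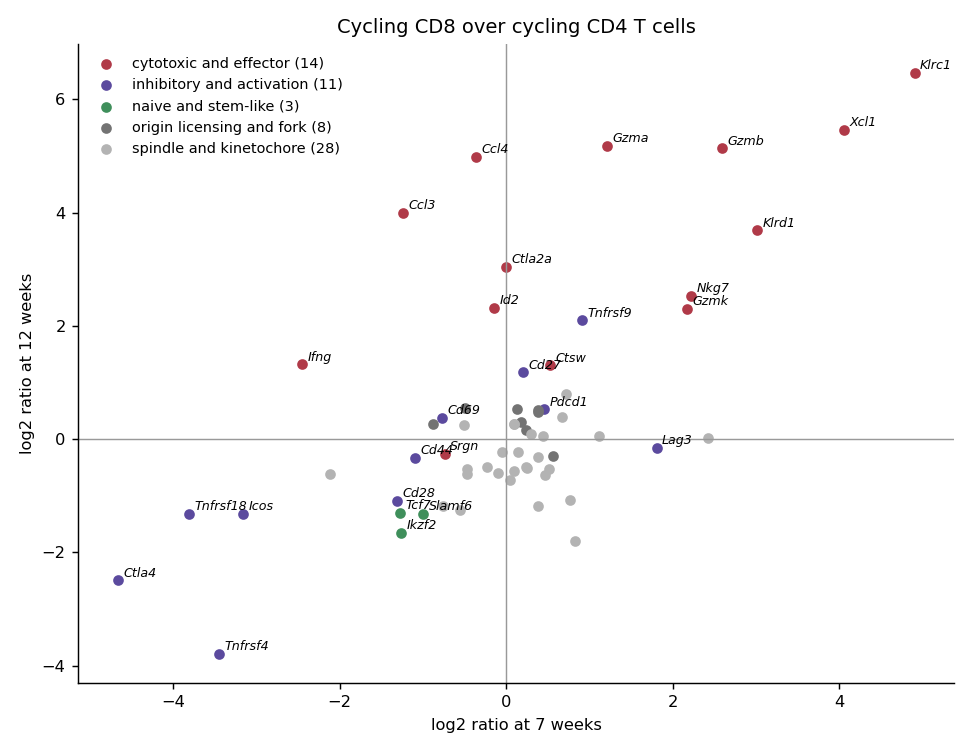
Log2 ratio of CPM, cycling CD8 over cycling CD4 T cells, at 7 weeks (x axis) and 12 weeks (y axis), 1 point per measured gene of chosen lists. Licensing and spindle genes lie around 0, with spindle list medians of 0.19 at 7 weeks and -0.51 at 12 weeks. Cytotoxic genes called higher, such as Nkg7, lie in the upper right, and Ctla4 and Tnfrsf4 in the lower left.

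Between the ages, few genes of the cycling CD8 cells moved beyond 2-fold. Of 1183 measured genes 41 (3.47%) were higher at 12 weeks and 32 (2.7%) lower, against 152 of 3196 (4.76%) and 74 (2.32%) in the resting Ccl5 cells. Each is 1 library against 1 library. Under the second thinning and without thinning as well, 1 gene, Cd7, remained higher and 13 lower. Cd7 (chr11:121036747-121039418), a T and NK cell surface receptor, was at 289.9 CPM at 7 weeks and 613 at 12 weeks, a ratio of 2.12 (1.3 to 3.61), and of 2.18 (1.8 to 2.67) without thinning. In the resting Ccl5 cells its ratio was 1.2 (0.951 to 1.54), and the difference between these ratios was not tested.

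The genes furthest higher by their interval were Gimap7, Cd7, Gdi2, Hells, Arpc5l, Ms4a4b, Gltscr2 and Bud31, of which Gdi2 and Ms4a4b did not reach the fold. Gimap7, a lymphocyte GTPase gene, went from 87 to 327 CPM, a ratio of 3.76 (1.62 to 10.7), but of 1.81 (1.4 to 2.36) without thinning. Hells, a chromatin remodeller of replicating cells, went from 72.5 to 226, a ratio of 3.12 (1.23 to 10.2), but of 1.09 (0.849 to 1.42) without thinning. Bud31 had a ratio of 2.96 (1.16 to 9.65) and of 0.964 (0.735 to 1.27) without thinning, and Arpc5l of 3.39 and 1.11. Tmpo went from 435 to 167, a ratio of 0.383 (0.221 to 0.664), and of 0.588 (0.471 to 0.735) without thinning. Lrrc58 had a ratio of 0.373 in cycling and 0.398 in resting Ccl5 cells, and Wdr89, which did not reach the fold, of 0.519 and 0.527. Xcl1 shows how far single cells and thinning can move a value: its ratio was 0.5 (0.4 to 0.626) with thinning and 1.33 (1.19 to 1.48) without.

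The MHC class II genes Cd74, H2-Aa, H2-Ab1 and H2-Eb1 and the lysosomal inhibitor gene Cst3 were lower at 12 weeks through 1 cell. Cd74 went from 841 to 77.4 CPM, a ratio of 0.0921 (0.0463 to 0.17). The single 7-week cell described above held 88.7% of the Cd74 UMIs of all cycling cells at that age, and between 76.5% and 82.8% of those of the other 4 genes. Without it the ratio was 2.55 (0.578 to 23.3) for Cd74, 0.842 for H2-Aa, 2.36 for H2-Ab1, 1.18 for H2-Eb1 and 0.681 for Cst3.

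Several genes of the cell cycle and effector programmes had ratios between the ages near 1. Hmgb2 was at 3406 and 3988 CPM, a ratio of 1.17 (1.01 to 1.36), and Mcm5 had a ratio of 1.21 (0.719 to 2.12). Nkg7 had a ratio of 1.11 (0.933 to 1.32), Gzmb of 1 (0.62 to 1.67) and Pdcd1 of 1.17 (0.681 to 2.09). The intervals for Mcm5, Nkg7, Gzmb and Pdcd1 held 1, and that for Hmgb2 left it out. Without thinning the ratios of Gzmb, 1.91 (1.52 to 2.43), and Nkg7, 1.28 (1.2 to 1.38), had intervals above 1. Of 6 licensing genes Mcm7 was higher at 12 weeks, at 2.28 (1.11 to 5.28) and at 1.76 (1.37 to 2.28) without thinning. Of 14 cytotoxic genes 3 were higher at 12 weeks, Ifng and Ctla2a among them, and in the resting Ccl5 cells 3 of 16 were. Of the 3 inhibitors measured Btg1 and Btg2 were lower, Btg1 at 0.422 (0.258 to 0.693).

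Cells on either side of the threshold showed what it selects. CD8 T cells with a 7-gene sum of 4 or 5 numbered 1 at 7 weeks and 7 at 12 weeks, and those with a sum of 2 or 3, just outside it, 16 and 17. The latter held medians of 8414.5 and 7107 UMIs in all, of 3 and 6 replication UMIs and of 3 and 3 G2/M UMIs after thinning. Of the cycling cells, 22 of 23 and 49 of 56 held 6 or more. Cells of at least 30000 UMIs numbered 4 at 7 weeks and 7 at 12 weeks.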

How the data were processed

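Gene counts of 2 droplet libraries (1 per age) were used as the authors deposited them: whole-number UMI counts per gene and barcode for 27998 genes, made with Cell Ranger 1.3.1 on mm10 per the submitters' processing notes. The filter that the authors put on barcodes before deposit was not stated in the labels. The libraries held 8701184 and 19288252 UMIs in 1113 and 2812 barcodes, with medians of 5643 and 4960.5 UMIs per barcode. Barcodes with under 200 genes or over 10% mitochondrial UMIs were left out (4 and 8).

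Cells were chosen by the UMI rule stated in the report, thinned at random to 3000 UMIs and summed per class and library, and sums were scaled to CPM. Log2 ratios had 0.5 UMI added to each sum, and a sum of 0 was set at 3 counts where a fold is stated as a bound. Shares have exact Clopper-Pearson 95% intervals, and ratios exact conditional binomial 95% intervals, both for counting error. Cells are not replicates, so no p-value was computed. The cells, the 26 gene lists (534 genes) and the tests were chosen with earlier results of these data known. Named genes were the rule's genes, then per list those past 2-fold with the most UMIs (up to 4) and up to 2 others, then the genes in no list with the largest ratios in the library nearer to 1 (10 each way against resting cells, 8 each way in the other comparisons), leaving out mitochondrial, ribosomal protein, haemoglobin, predicted, acinar and endocrine genes. A few genes outside that rule are given for comparison or because single cells set their value. Alternatives were other thinnings, median-of-ratios scaling, other UMI minimums, other comparison cells and cell filters. The scripts, tested on simulated data, used python 3.11.15, numpy 2.4.6, scipy 1.17.1, pandas 2.3.3 and scanpy 1.11.5 (Scrublet). Promoter windows came from RefSeq (GRCm38.p6). Gene coordinates are those of the GENCODE annotation on mm10.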

Additional observations from a re-analysis of the deposited data

Results flagged for a closer look

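A gene was singled out where its ratio in the 7-week library and its ratio in the 12-week library lay on opposite sides of 1 with 95% counting intervals that both left out 1. The difference between the libraries was not tested, since each age is 1 library. Against the resting Ccl5 cells, the chemokine gene Ccl4 had ratios of 2.71 at 7 weeks and 0.855 at 12 weeks, and the mitochondrial gene mt-Nd5 of 1.83 and 0.518. The MHC class II genes differed most, with Cd74 at 4.36 and 0.179, H2-Aa at 2.85 and 0.280, H2-Ab1 at 3.38 and 0.369 and H2-Eb1 at 6.61 and 0.340. At 7 weeks 1 cell held most of their UMIs. In that order, the thinned 7-week sums were 58, 38, 43 and 30 UMIs with that cell and 2, 7, 3 and 4 without it. The high 7-week ratios of these 4 genes thus rest on that cell.

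Against the cycling CD4 cells, the ratio of the interferon gamma gene Ifng was 0.172 at 7 weeks and 2.57 at 12 weeks. Ccl3 had ratios of 0.419 and 17.8 and Ccl4 of 0.776 and 34.3. A single CD8 cell held 73.1% at 7 weeks and 24.1% at 12 weeks of the Ccl3 UMIs. The surface gene Thy1 had ratios of 1.57 and 0.699, and Naca of 1.33 and 0.796. For each of these genes the direction against the comparison cells was reversed between the ages.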

How the results depend on the processing

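The counts of genes past 2-fold moved with many settings. The main counts were 252 higher and 145 lower against resting Ccl5 cells, 41 and 32 at 12 against 7 weeks, and 39 and 51 against cycling CD4 cells. In the same order, thinning to 1500 UMIs gave 158 and 81, 17 higher, and 24 and 15. Thinning to 5000 UMIs gave 81 and 54 between ages, and no thinning 603 and 343, 148 and 141, and 98 and 169. A minimum of 60 UMIs gave 147 and 89, 10 and 16, and 15 and 16. No minimum gave 710 and 436 between ages and 91 and 115 against CD4 cells. Median-of-ratios scaling gave 164 higher and 214 lower against resting cells and 62 higher at 12 weeks, and moved the median log2 ratio of all genes from 0.18 to -0.07. Comparison cells with at least 8000 UMIs, a smaller set, gave 128 and 12, and reversed Dusp2 to 1.26 (mean log2 ratio, from -1.76).

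Leaving out cycling CD8 cells with 2 or more UMIs of other lineages removed 19 of 23 and 46 of 56, and gave 546 and 26, 17 and 11, and 20 and 20. Without Cd74 and Bst2 among those markers the filter removed 12 and 21, and gave 83 lower against resting cells and 20 and 32 against CD4 cells. The smaller set was also applied to the cycling CD4 cells, the full set was not. Resting cells and the other CD8 T cells in the share were not filtered by these markers. The filters thus acted on 1 side of those comparisons, and how many resting cells would fail them was not tested. The share of CD8 T cells that were cycling became 2.65% and 2.42% with the full marker set, 6.96% and 7.99% with the smaller set, 7.86% and 8.02% when the rule was applied at 3000 UMIs, 8.70% and 7.30% at 1500, and 19.2% at 12 weeks among cells with at least 2 Ccl5 UMIs. Its ratio between ages stayed within its counting interval in all 10 settings. The 7-week G2/M share became 30.4% at 1500 UMIs. Of the recomputed values, 96 of 216 list medians and 313 of 1072 log2 ratios of named genes moved beyond the spread between libraries. No paired analysis was possible because each age had 1 library. Depth limits genes below about 30 UMIs over the sums, and 79 cells give wide intervals for them. The marker filters were in part chosen after seeing the data, as were the comparison cells by depth.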

Other observations

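Beside the 79 cells, other T cells met the same cell cycle rule. Of 70 such cells at 7 weeks and 140 at 12 weeks, 23 and 56 were CD8 and 30 and 48 CD4 by the rule. A further 3 and 14 held at least 2 CD8 UMIs and at least 1 Cd4 UMI, with median totals of 27774 and 18106.5 UMIs, above the medians of the CD8 cells (18130 and 15325.5). The remaining 14 and 22, with medians of 21474.5 and 18084 UMIs, met neither rule. The last 2 sets entered no comparison.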
